A study of Homo sapiens with 6 samples.

Results

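Epithelial-mesenchymal transition (EMT) is controlled by a small set of transcription factors and by epithelial regulators that oppose them, and 10 such genes were followed in adriamycin-resistant breast cancer cells. The genes were SNAI1, SNAI2, TWIST1, TWIST2, ZEB1, ZEB2, VIM, GRHL2, ESRP1 and EPCAM, each found as 1 row by its gene name among the 58735 genes of the deposited count table. RNA had been sequenced from MDA-MB-231, a triple-negative breast cancer (TNBC) cell line, with 3 libraries of parent cells (labelled WT) and 3 libraries of ADR-resistant (ADRr) cells derived from the same line. Adriamycin (ADR, doxorubicin) is an anthracycline that poisons topoisomerase II. According to the methods, resistant cells were obtained by stepwise selection in rising ADR and clones were picked by limiting dilution, so the ADRr libraries may stand for a single clone. The dose, if any, in the medium at harvest is not given in the sources used here, and both groups share the same labelled medium and serum. The record of the series speaks of 3 time points that no sample label carries, and libraries with the same group label were taken here as its replicates. Nothing says that they came from separate cultures, and p-values then measure only the spread between these libraries, which may be technical.

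EMT describes the loss of junctions and polarity in epithelial cells and the gain of a motile, mesenchymal state. The zinc-finger factors of the SNAIL family (SNAI1, SNAI2) and of the ZEB family (ZEB1, ZEB2) repress epithelial genes such as CDH1 through E-boxes in their promoters, and the bHLH factors TWIST1 and TWIST2 act with E proteins on similar sites. Vimentin (VIM) is the intermediate filament of mesenchymal cells, while GRHL2 keeps epithelial genes active, ESRP1 directs epithelial splice forms and EPCAM is an adhesion molecule of the epithelial surface. MDA-MB-231 is classed among the claudin-low lines, which sit at the mesenchymal end of breast cancer lines.

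Total counts ran from 15983985 to 18272314 per library, at which the 3 counts that a count of 0 allows equal 0.164 to 0.188 CPM (counts scaled to library size), a limit that covers counting error only. Mitochondrial genes held 4.63 to 5.26% of counts, and TMM factors lay between 0.987 and 1.01. All 6 markers that such a line should have (VIM, CD44, MSN, CAV1, CAV2 and AXL) were at 1 CPM or more in every library. CD44 was higher in ADRr (log2 fold change 0.80), while VIM, CAV1 and AXL were lower (-0.56, -1.30 and -0.62). Of the receptors that define TNBC by their absence, PGR was at 0 and ESR1 had at most 1 count in a library. ERBB2 was measured in both groups and was lower in ADRr (log2 fold change -1.24). The 10 blood cell markers were leukocyte genes and HBB, a gene of red cells. Of these markers, 7 were below 1 CPM in all libraries, with TYROBP and HBB among those at 0. Their summed level was 78.2 to 85.7 CPM in parent and 125 to 132 CPM in ADRr, as ITGB2 and LAPTM5 were higher (log2 fold changes of 0.71 and 0.68). Of 4 endothelial markers, 3 were below 1 CPM in all libraries, while KDR was higher (1.07) and the sum went from between 3.15 and 4.94 CPM in parent to between 8.44 and 9.38 CPM in ADRr. Among 15242 genes tested with edgeR's quasi-likelihood test, 4451 (29.2%) were called higher in ADRr and 4507 (29.6%) lower, with thresholds of 0.05 for the Benjamini-Hochberg adjusted p and 1.2 for the fold. Each count of genes below is to be read against those 2 shares.

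Of the 10 genes, 7 passed the filter on low counts and were tested. ZEB1, ZEB2 and EPCAM were called higher in ADRr, as were 29.2% of all tested genes, and VIM was called lower, as were 29.6%, while SNAI1 and SNAI2 were not called. ESRP1 passed the filter only through its ADRr counts, so its values are given as a description and not counted among the calls. TWIST1, TWIST2 and GRHL2 had too few counts in both groups to be tested. The genes raised in ADRr included both ZEB factors, which are known for repressing epithelial genes, and EPCAM, which marks epithelial cells. In bulk RNA, a change in the share of cells that carry a transcript and a change in its amount per cell cannot be told apart, and this holds for every gene below.

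**Figure D1:**
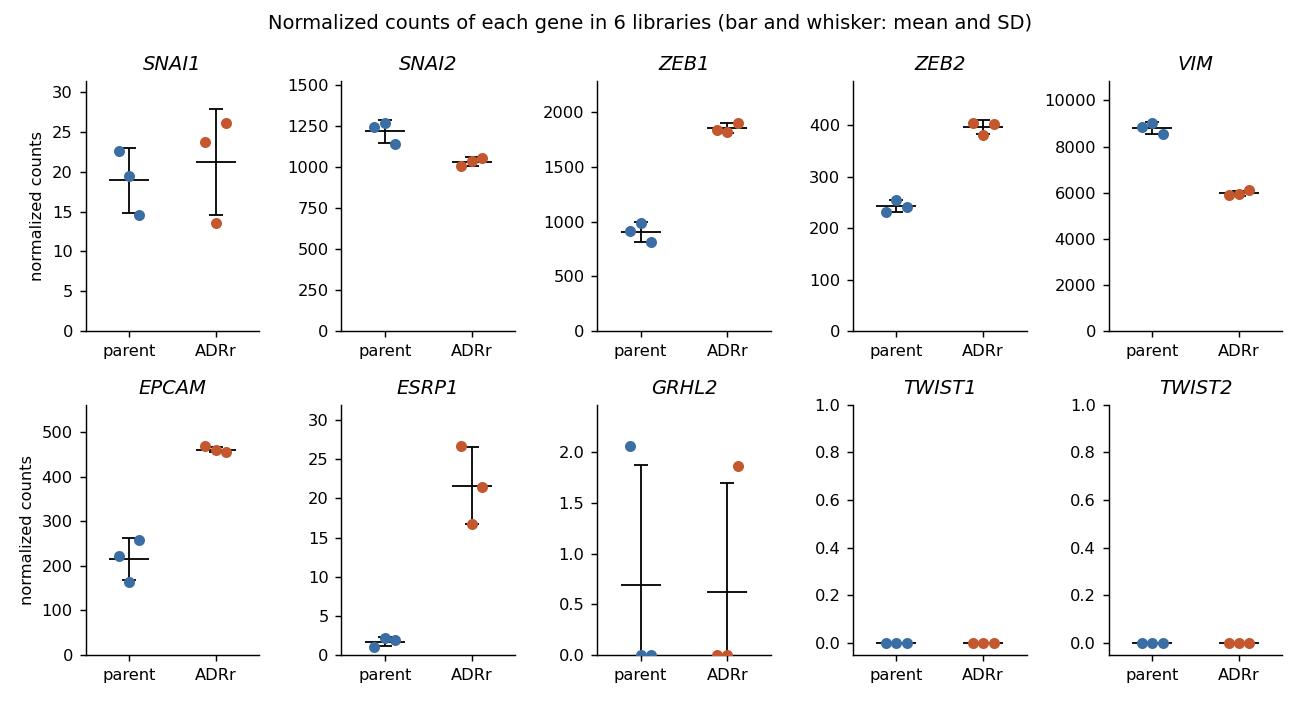
Normalized counts (linear axes from 0, except a little below 0 for the TWIST genes) of the 10 genes in the 3 parent (blue) and 3 ADRr (orange) libraries. Points are libraries, and bars with whiskers are means with SD. ZEB1, ZEB2, EPCAM and ESRP1 lie higher in every ADRr library than in any parent library, VIM and SNAI2 lie lower, SNAI1 overlaps, and GRHL2 and the TWIST genes are at or near 0.

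ZEB1 (ENSG00000148516, chr10:31318495-31529814, plus strand, GRCh38), a zinc-finger repressor of CDH1 and of the miR-200 genes, had 914, 987 and 811 normalized counts in the parent libraries. The ADRr libraries had 1837, 1815 and 1902. Every ADRr library lay above every parent library, a separation seen in 34.5% of all tested genes. The means were 904 ± 88.0 in parent and 1851 ± 45.1 in ADRr (SD, n = 3 each), a log2 fold change of 1.04 (SE 0.068, 95% interval 0.89 to 1.18) with an adjusted p of 7.2e-12 in edgeR. This was a rise of 2.05-fold.

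ZEB2 (ENSG00000169554, chr2:144364364-144524583, minus strand), the paralogue of ZEB1 with the same double zinc-finger design, was the rarer of the pair. Its normalized counts were 232, 254 and 242 in parent and 404, 380 and 403 in ADRr, with no overlap between the groups. The means of 242 ± 11.4 and 396 ± 13.7 gave a log2 fold change of 0.71 (SE 0.096, 95% interval 0.51 to 0.91) and an adjusted p of 9.1e-07 in edgeR. The change was 1.63-fold. Per length, ZEB2 stood at 0.0943 of the ZEB1 level in parent and at 0.0745 in ADRr, as ratios of FPKM. The lengths used, 25058 bases for ZEB2 and 8650 for ZEB1, count all annotated exons together. Their longest coding transcripts have 9583 and 6267 bases, and with these lengths both ratios would be higher. On the log2 scale the ratio of ZEB2 to ZEB1 was -3.41 ± 0.13 in parent and -3.75 ± 0.04 in ADRr, a difference of -0.34. All 3 ADRr ratios lay below all parent ratios, and the exact two-sided permutation p of 0.1 is the smallest that 3 against 3 libraries allow.

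The start of ZEB1 overlaps ZEB1-AS1 (ENSG00000237036, chr10:31206278-31320447, minus strand), an antisense transcript that shares 366 exonic bases with it. ZEB1-AS1 rose as well, from 84.4, 104 and 92.5 normalized counts in parent to 163, 149 and 168 in ADRr. Its log2 fold change was 0.77 (SE 0.15, adjusted p = 7.3e-05 in edgeR). VIM has a partner of the same kind, VIM-AS1 (ENSG00000229124, chr10:17214239-17229985, minus strand), with 641 shared exonic bases. VIM-AS1 had 91.6, 70.3 and 82.8 normalized counts in parent and 67.6, 46.0 and 31.8 in ADRr, a log2 fold change of -0.75 (SE 0.24, adjusted p = 0.0084 in edgeR). Without ADRr replicate 3 its value was -0.52 with an adjusted p of 0.070, so that call rested on this library. Whether counting used the strand is not stated, and without strand the reads of a gene and its antisense partner in shared exons cannot be told apart. ZEB2-AS1, which shares 1299 exonic bases with ZEB2, was at 0 in all libraries.

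The 250 bases before the RefSeq starts of ZEB1 and VIM (GRCh38.p14, plus strand) are shown because ZEB1 rose, VIM fell, and an antisense transcript starts near each of them. The ZEB1 stretch is chr10:31318167-31318416 and the VIM stretch is chr10:17227991-17228240. Capitals mark the E-box CAGGTG or CACCTG, the 6 letters read on both strands that SNAIL and ZEB fingers are known to bind.
ZEB1 upstream: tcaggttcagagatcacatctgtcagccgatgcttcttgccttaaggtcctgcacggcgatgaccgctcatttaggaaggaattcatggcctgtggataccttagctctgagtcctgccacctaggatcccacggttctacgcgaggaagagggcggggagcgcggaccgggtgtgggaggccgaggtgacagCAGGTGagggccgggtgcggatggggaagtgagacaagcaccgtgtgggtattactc
VIM upstream: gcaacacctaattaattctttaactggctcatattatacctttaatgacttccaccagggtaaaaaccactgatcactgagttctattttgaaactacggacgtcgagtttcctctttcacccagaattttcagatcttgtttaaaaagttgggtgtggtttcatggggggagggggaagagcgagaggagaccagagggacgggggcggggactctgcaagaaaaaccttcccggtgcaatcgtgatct
The ZEB1 stretch holds 1 such E-box, 57 bases before the start, and the VIM stretch holds none. RefSeq lists 7 start windows for ZEB1 and 2 of them hold the motif, against 20.6% of 35116 windows of the same 300 bases over all genes. A match is a description of letters and was not tied to binding here. Windows were found for VIM, ZEB1, ZEB2 and TWIST2 and for no other member. Those of ZEB2, which also rose, and of TWIST2 held no such E-box. The ZEB1 window shown is the one whose start lies nearest the annotated gene start, 78 bases away.

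SNAI2 (ENSG00000019549, chr8:48917604-48921740, minus strand), which encodes SLUG, was the SNAIL family gene with most counts. It had 1246, 1271 and 1139 normalized counts in parent and 1005, 1038 and 1057 in ADRr. Every ADRr library was below every parent library, as in 34.7% of tested genes. The means of 1219 ± 70.4 and 1033 ± 26.5 differed by -0.24 on the log2 scale (SE 0.065, 95% interval -0.37 to -0.10, adjusted p = 0.0029 in edgeR). At 1.18-fold this passed the p threshold but not the fold threshold of 1.2. When parent replicate 3 was left out the value was -0.29 and SNAI2 was called lower.

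SNAI1 (ENSG00000124216, chr20:49982999-49988886, plus strand), which encodes SNAIL, was near the limit of what these depths resolve. Its raw counts, before any scaling, were 22, 18 and 15 in parent and 25, 13 and 28 in ADRr. The groups overlapped, with the lowest value of all in an ADRr library. The log2 fold change was 0.18 (SE 0.36, adjusted p = 0.69 in edgeR), and its 95% interval of -0.58 to 0.93 leaves room for a change in either direction. Without ADRr replicate 3 the value was -0.0031. Per length, SNAI2 exceeded SNAI1 by 5.00 ± 0.25 in parent and 4.63 ± 0.50 in ADRr on the log2 FPKM scale. The difference of -0.37 had an exact two-sided permutation p of 0.3.

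TWIST1 (ENSG00000122691, chr7:19020991-19117672, minus strand) and TWIST2 (ENSG00000233608, chr2:238848032-238910543, plus strand) had 0 counts in all 6 libraries. At these depths this allows up to 0.164 to 0.188 CPM in a library. No fold or test can be given for them. Their level was below detection in both groups, including the parent cells.

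VIM (ENSG00000026025, chr10:17228259-17237593, plus strand) carried the highest level of the 10 genes. It had 8859, 9036 and 8541 normalized counts in parent and 5910, 5930 and 6102 in ADRr. Each ADRr library was well below the lowest parent library. The means fell from 8812 ± 251 to 5981 ± 106, a log2 fold change of -0.56 (SE 0.047, 95% interval -0.66 to -0.46, adjusted p = 4.4e-10 in edgeR). VIM was thus 1.47-fold lower in the resistant cells while both ZEB genes were higher. It remained an abundant transcript, ranking 342 of 58735 genes by FPKM in parent and 571 in ADRr.

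EPCAM (ENSG00000119888, chr2:47345158-47387601, plus strand), the epithelial adhesion molecule, had 221, 164 and 259 normalized counts in parent. The 3 ADRr libraries were close together at 468, 459 and 456. All of them exceeded the highest parent library. The means of 215 ± 47.6 and 461 ± 6.39 gave a log2 fold change of 1.10 (SE 0.12, 95% interval 0.85 to 1.34, adjusted p = 3.2e-08 in edgeR), or 2.14-fold. The parent libraries set most of the uncertainty, and the log2 value was 0.93 without parent replicate 2 and 1.25 without parent replicate 3.

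ESRP1 (ENSG00000104413, chr8:94641074-94707466, plus strand), an RNA-binding protein that directs epithelial splicing, was nearly silent in parent cells. Its raw counts there were 1, 2 and 2, against 28, 16 and 23 in ADRr. The groups did not overlap, although the ADRr level was also low and the gene passed the filter only through those libraries. The summed counts of 5 and 67, scaled to library size, gave a ratio of 12.7 with a 95% counting interval of 5.19 to 40.5. The fitted edgeR log2 fold change of 3.57 depends on how the few parent counts are smoothed, and no p is given because the gene reached the test through the group in which it was high. On the log2(FPKM + 1) scale with no filter, limma gave 0.30. Its paralogue ESRP2 had far more counts, with means of 237 ± 15.5 in parent and 229 ± 23.3 in ADRr, and was not called (log2 fold change -0.06, SE 0.11).

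GRHL2 (ENSG00000083307, chr8:101492432-101669726, plus strand), a grainyhead factor that sustains epithelial genes, had counts of 2, 0 and 0 in parent and 0, 0 and 2 in ADRr. Both groups were at the detection floor, so no fold is given. The higher EPCAM and ESRP1 values were recorded in cells in which GRHL2 stayed at the floor. A link between GRHL2 and these values was not tested. Markers of luminal epithelial lines were examined beside these genes. Of 12 such markers, 5 were at 1 CPM or more in every library and 6 were below 1 CPM in all, with PGR and AGR2 at 0. Their summed level was 323 to 362 CPM in parent and 445 to 471 CPM in ADRr, with XBP1 and MLPH higher and KRT19 and CDH1 lower. The part of other cells in the EPCAM and ESRP1 values was not tested.

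**Figure D2:**
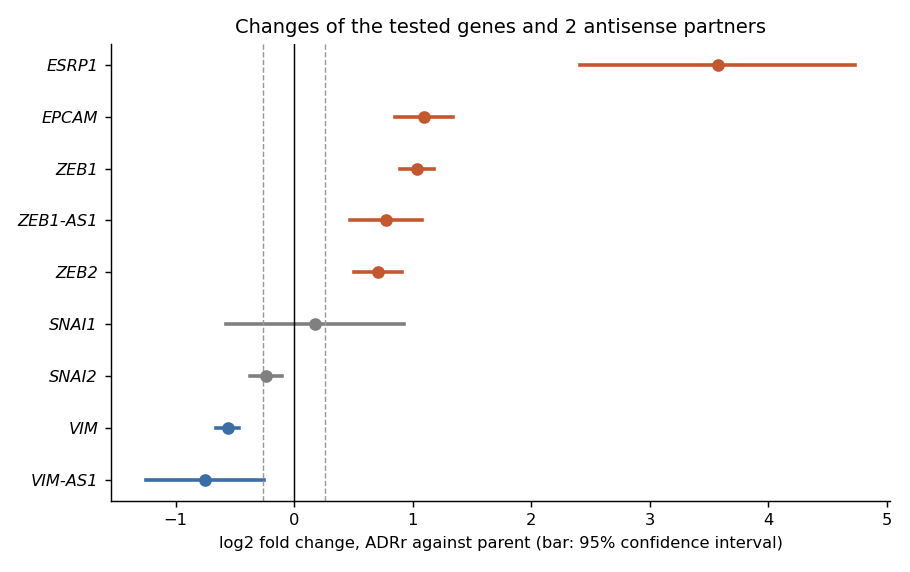
Log2 fold change of ADRr over parent for the 7 tested genes and for ZEB1-AS1 and VIM-AS1, with the 95% interval from edgeR. Orange was called higher, blue lower and grey not called, and dashed lines mark a fold of 1.2. ESRP1 entered the fit only through its ADRr counts, so its colour is not counted as a call. It has the widest interval (2.41 to 4.73), and only that of SNAI1 spans 0.

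Genes near the members were also compared, a description that was chosen after the values were seen. Within 1 megabase on either side of EPCAM, 14 of 19 other tested genes were called higher and 3 lower, with a median log2 fold change of 0.82. Within 5 megabases, 26 of 36 were higher and 4 lower, again with a median of 0.82. The neighbours included EPAS1, RHOQ, CALM2, FBXO11 and FOXN2, with log2 fold changes of 1.94, 1.09, 0.45, 0.82 and 0.88. EPCAM thus lay in a stretch of the short arm of chromosome 2 in which most tested genes were higher.

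Around ESRP1, 10 of 17 tested genes within 1 megabase were lower and 2 higher (median -0.48). DPY19L4 and INTS8, which lie next to it on the distal side, had log2 fold changes of -0.58 and -0.73. Around ZEB1, 5 of 10 tested neighbours were higher and 2 lower (median 0.43), and within 5 megabases 14 of 42 were higher and 11 lower (median 0.01). Around VIM, 4 of 12 were higher and 5 lower within 1 megabase (median -0.30), whereas 24 of 44 were higher and 10 lower within 5 megabases (median 0.43). ZEB2 had a single tested neighbour, GTDC1, at 0.65. The part of the surrounding region in any of these values was not tested.

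Levels were compared between genes only per length, as FPKM. In parent cells the order was VIM (97.7 ± 2.92), SNAI2 (20.5 ± 1.22), ZEB1 (5.97 ± 0.588), EPCAM (4.88 ± 1.08), SNAI1 (0.641 ± 0.139), ZEB2 (0.553 ± 0.025) and ESRP1 (0.020 ± 0.007). The libraries of ZEB1 and EPCAM overlapped, as did those of SNAI1 and ZEB2 and those of ESRP1 and GRHL2. In ADRr cells the order was VIM (66.5 ± 1.33), SNAI2 (17.5 ± 0.464), ZEB1 (12.3 ± 0.332), EPCAM (10.5 ± 0.143), ZEB2 (0.906 ± 0.034), SNAI1 (0.721 ± 0.229) and ESRP1 (0.254 ± 0.059). Among the neighbours in that order, only the libraries of ZEB2 and SNAI1 overlapped. ZEB1 moved from rank 6672 to 3923 of all genes by mean FPKM and EPCAM from 7416 to 4492, while ESRP1 moved from 23898 to 16634. FPKM here divides by the length of all annotated exons together, which is 25058 bases for ZEB2 and 5158 for VIM, against 9583 and 1868 for their longest coding transcripts. A shorter length would raise the FPKM of ZEB2 and VIM but not that of SNAI1, for which both lengths are 1686. With the longest coding transcript as length, ZEB2 would stand above SNAI1 in parent cells too. The parent order of these genes therefore depends on the length used.

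**Figure D3:**
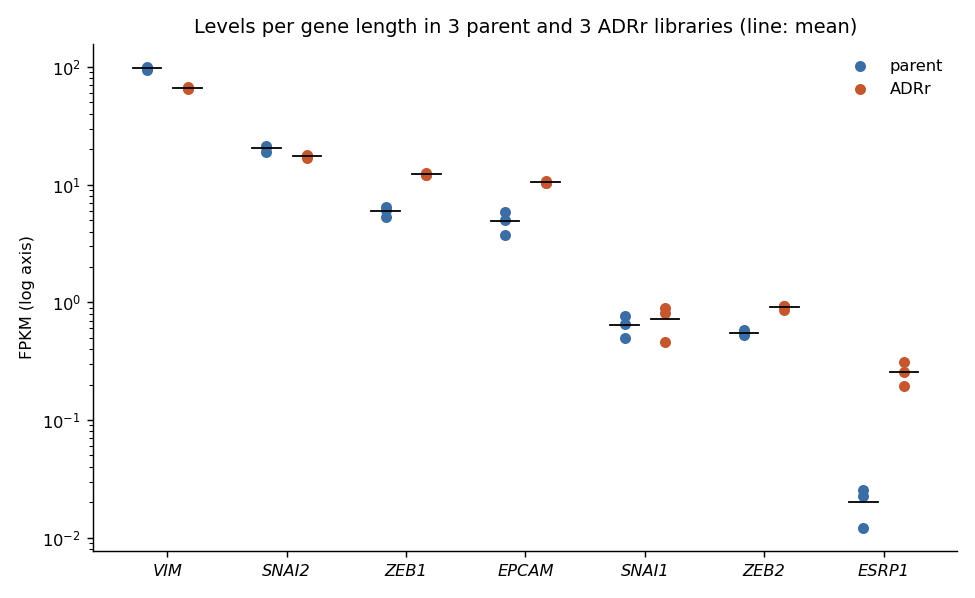
FPKM (log axis) of the 7 genes with a test in each parent (blue) and ADRr (orange) library, ordered by parent level. Points are libraries and lines are means. VIM and SNAI2 lead in both groups, ZEB1 and EPCAM stand next to each other and higher in ADRr, and ESRP1 is the lowest in both.

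Other EMT-associated transcription factors were split. Of 25 listed, 15 were tested, with 5 higher and 4 lower and a median log2 fold change of 0.03, against -0.01 over all tested genes. The lower genes include LBX1, with raw counts of 23, 13 and 24 in parent and 0 in each ADRr library. LBX1 thus passed the filter only through the group in which it was high. EPAS1, the hypoxia-inducible factor HIF-2 alpha, rose from 2217 ± 69.2 to 8496 ± 139 normalized counts (log2 fold change 1.94). ETS1, a factor of invasive cells, rose from 3877 ± 79.4 to 7797 ± 41.4 (1.01), and GATA6 rose by 0.71. The forkhead factors FOXQ1 and FOXF2 fell by 2.35 and 1.92 on the log2 scale.

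E proteins dimerise with TWIST factors, and ID proteins are inhibitors that sequester E proteins. Of 7 such genes listed, 5 were tested, 4 were lower and none was higher, with a median of -2.91. ID1 had 3848, 3529 and 4300 normalized counts in parent and 195, 175 and 150 in ADRr, a log2 fold change of -4.49 (SE 0.090, adjusted p = 8.8e-21 in edgeR). ID3 fell by 3.90 and ID2 by 2.91. The ID genes thus held the large differences in this list, since TCF12 fell by 0.28 and TCF3 was not called (-0.10). TCF4, another E protein, had at most 1 count in a library.

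Cofactors and stability regulators of SNAIL and ZEB proteins gave 6 higher and 7 lower of 25 tested (median -0.0035). The C-terminal binding proteins, corepressors that ZEB1 recruits, went opposite ways. CTBP2 rose from 1111 ± 29.4 to 2511 ± 55.9 normalized counts (log2 fold change 1.18), while CTBP1 went from 2369 ± 129 to 1291 ± 88.2 (-0.88). HDAC1, a histone deacetylase of SNAIL complexes, and SMARCA4, a chromatin remodeller that binds ZEB1, fell by 0.82 and 0.69. The deubiquitinase USP27X and the F-box protein FBXO11, which act on SNAIL stability, rose by 0.87 and 0.82.

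Among 20 other epithelial transcription factors, 9 were tested, with 5 higher and 1 lower (median 0.40). KLF4 rose from 515 ± 11.7 to 3026 ± 44.7 normalized counts (log2 fold change 2.56), TFAP2C rose by 2.46 and GRHL1, a paralogue of GRHL2, rose by 1.43. ELF3 fell by 1.97. The count of lower genes was 2 without parent replicate 1 and also without parent replicate 2. OVOL1 had at most 1 count in a library and GRHL3 at most 5.

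Splicing factors of the epithelial and mesenchymal programmes included 3 higher and 8 lower of 19 tested (median -0.09). MBNL2 and TIA1 rose by 0.71 and 0.39 on the log2 scale. MBNL3, RBM24 and HNRNPA1 fell by 1.71, 1.65 and 0.56.

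**Figure D4:**
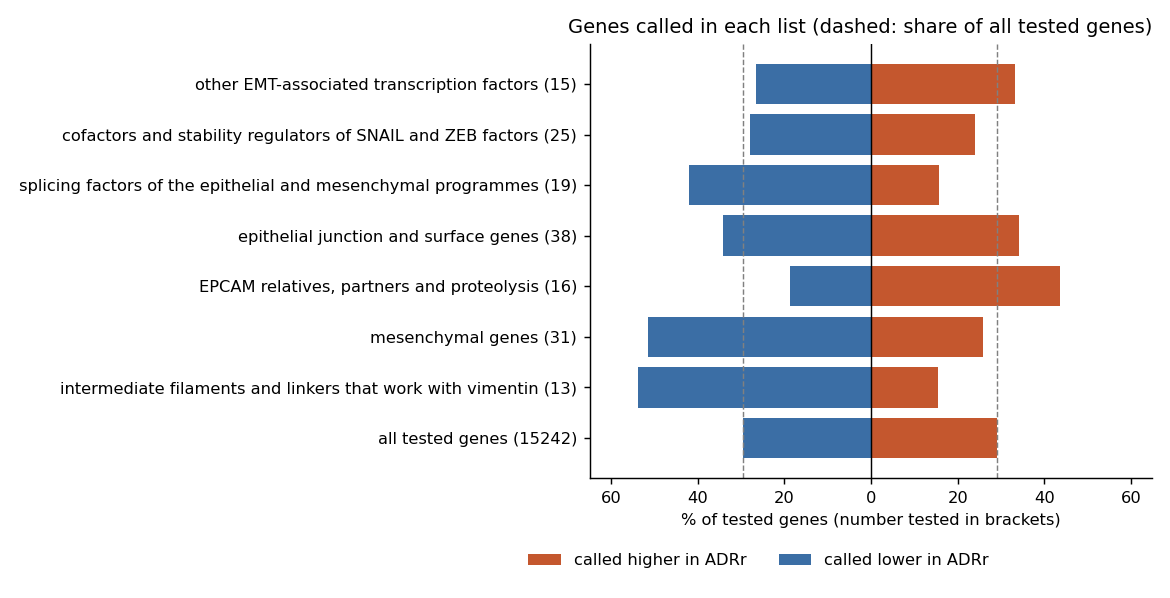
Percent of tested genes called higher (orange, to the right) and lower (blue, to the left) in ADRr, for the lists with at least 10 tested genes and for all tested genes. Numbers in brackets are genes tested, and dashed lines are the shares over all tested genes (29.2 and 29.6%). Mesenchymal genes, intermediate filaments and splicing factors have more genes lower than higher, and EPCAM relatives have more higher than lower.

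Epithelial junction and surface genes were divided evenly, with 13 higher and 13 lower of 38 tested (median -0.06). The claudins CLDN1 and CLDN7, tight junction proteins, rose by 2.35 and 1.36 and the apical transport protein MAL2 by 1.80. The mucin MUC1 fell by 3.24 and the simple-epithelium keratin KRT8 fell by 2.00. KRT7, another keratin of simple epithelia, fell from 12309.7 ± 1008 to 4367 ± 68.0 normalized counts. CDH1, the E-cadherin gene that SNAIL and ZEB factors repress, lies outside the rule for named genes and was picked after its values were seen. It had 250, 280 and 227 normalized counts in parent and 122, 139 and 101 in ADRr, a log2 fold change of -1.07 (SE 0.14, adjusted p = 3.7e-07 in edgeR). The EPCAM and CDH1 values therefore moved in opposite directions.

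Relatives, partners and proteases of EPCAM gave 7 higher and 3 lower of 16 tested (median 0.17). EGFR rose from 8510 ± 212 to 22376 ± 226 normalized counts (log2 fold change 1.39), and CLDN7, which binds EPCAM, is counted in this list as well. Of the sheddases that cleave EPCAM, ADAM17 rose by 1.04 and ADAM10 fell by 1.70, and BACE1 fell by 0.55. The count of lower genes was 5 without ADRr replicate 3.

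Mesenchymal genes had 8 higher and 16 lower of 31 tested, or 25.8 and 51.6%, with a median of -0.50. COL6A2 and COL6A1, collagen VI chains, rose by 2.34 and 1.72, and CDH11 rose by 1.43. COL1A2, a collagen I chain, had 1227, 1147 and 1151 normalized counts in parent and 3.81, 11.5 and 4.67 in ADRr (log2 fold change -7.47, and -8.07 without ADRr replicate 2). With raw ADRr counts of 4, 11 and 5, COL1A2 passed the filter only through the parent libraries. Its values are therefore a description, although the 16 lower include it. PDGFRB and FSTL1 fell by 2.90 and 1.44. Fibroblast markers moved with this group, and their summed level was 88.1 to 89.7 CPM in parent and 21.9 to 24.8 CPM in ADRr, with 5 of 8 below 1 CPM in all libraries and DCN at 0. The other 3 (PDGFRB, LUM and COL6A3) are also members of the mesenchymal list, and PDGFRB alone held most of the parent sum, so this is no separate measurement. The part of such cells in these values was not tested.

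Intermediate filaments and linkers that work with vimentin showed 2 higher and 7 lower of 13 tested (median -0.47). GFAP, the filament protein of astrocytes, rose by 1.16. LMNB1, a nuclear lamin, fell by 2.03, and nestin (NES) and synemin (SYNM), which copolymerise with vimentin, fell by 1.66 and 1.23.

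**Figure D5:**
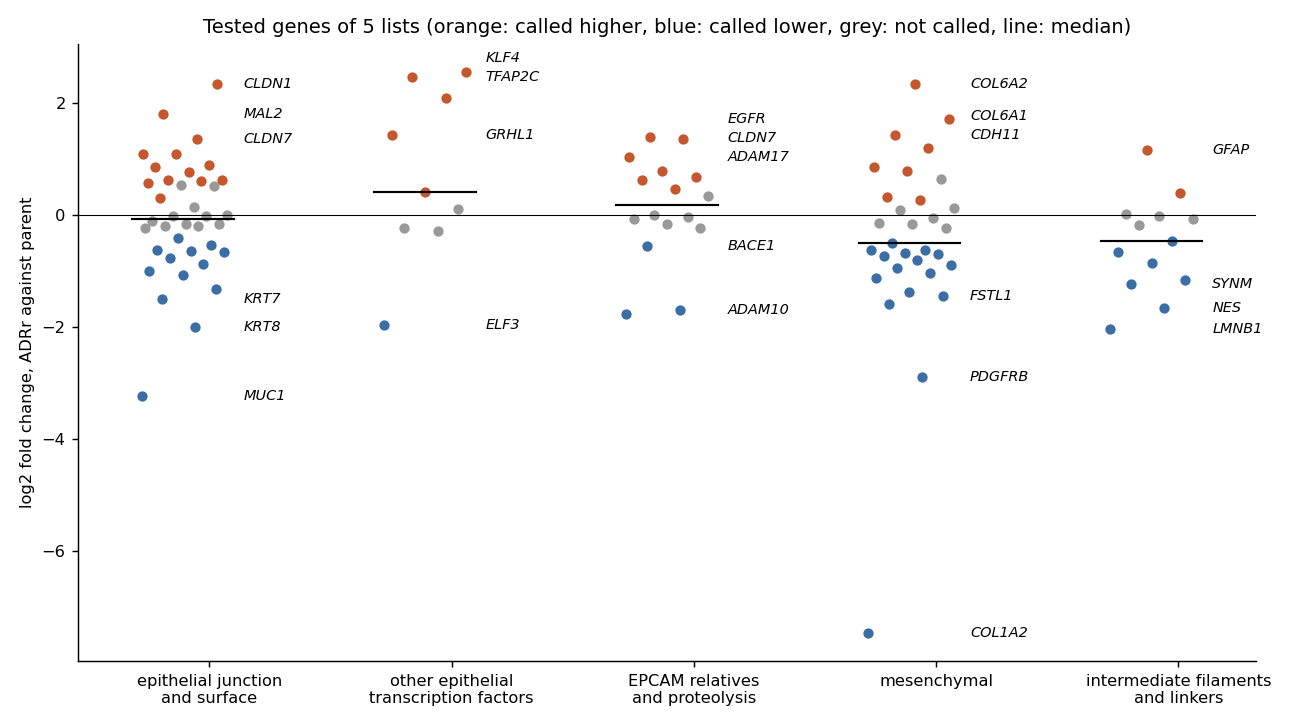
Log2 fold change of ADRr over parent for each tested gene of 5 lists, with genes named in the text labelled. Orange points were called higher, blue lower and grey not called, and lines are list medians. COL1A2, at -7.47, lies far below every other gene shown, and it passed the filter only through its parent counts. The medians of the mesenchymal and filament lists lie below 0.

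Of 10 listed antisense and host transcripts, 9 were in the table, 5 were tested, and 3 were higher and 2 lower (median 0.77). Besides ZEB1-AS1 and VIM-AS1, MIR100HG fell from 496 ± 70.7 to 157 ± 11.3 normalized counts (log2 fold change -1.65). SNAI3-AS1 and MIR34AHG rose by 0.94 and 1.33 from means of 13.2 and 11.6. MIR200CHG and MIR205HG, hosts of microRNAs that target ZEB1 and ZEB2, were at 0 in every library. The count of lower transcripts was 1 without ADRr replicate 3, when VIM-AS1 was no longer called.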

How the data were processed

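RNA-seq of 3 parent and 3 ADRr libraries was analysed. Per the methods, polyadenylated RNA was made into CORALL libraries and sequenced paired-end. The submitters' processing notes name fastp, HISAT2 2.0.5, featureCounts 1.5.0-p3 and DESeq2 1.20.0 on GRCh38. The sample labels describe another kit and RNA amount, and strandedness is not stated. The authors deposited a table of raw whole-number counts and a table of FPKM values, which scale the counts by gene length and depth. Starts and ends of all 58735 genes were the same as in GENCODE 29.

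Counts were tested with edgeR 4.0.16 in R 4.3.3 (filterByExpr, TMM, quasi-likelihood test, Benjamini-Hochberg adjustment over 15242 genes, no block). Normalized counts were scaled to the mean effective library size. Within-family ratios used log2 of FPKM plus 0.01 and an exact permutation test. The fits were tested on simulated data. Alternatives were DESeq2 1.42.0, other size factors and filters, limma 3.58.1 (trend) on FPKM, a replicate block, each library left out and other thresholds.

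The genes named were the 10 members, genes that overlap them, and in each list up to 3 largest increases and 3 largest decreases among called genes whose groups did not overlap and whose higher group averaged 50 or more normalized counts. Some genes that this rule selects are left out. In the antisense list every gene with a count could be named. Genes cited beyond this rule (CDH1, ESRP2, E proteins, chromosomal neighbours, factors near 0) were chosen after their values were seen. The members and the hand-written lists were chosen with earlier results of these data known. TWIST1-AS1 was not matched by name and is not used here. Promoter windows came from RefSeq on GRCh38.p14 and were found for 4 members.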

Additional observations from a re-analysis of the deposited data

How the results depend on the processing

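ESRP1 passed the filter only through its ADRr libraries, so its calls in this section are a description and give no support. For the 7 tested members, 100 of 102 values under the alternatives kept their direction and their side of the threshold. ESRP1 supplied 12 of those 102 values. For the 48 other genes named by the rule 711 of 713 did so, both exceptions being VIM-AS1. When the threshold of 1.2 was set on the log2 scale, 1114 genes were higher and 972 lower, and 1 member (ESRP1) was higher and 0 lower. With the adjusted p alone, 2 members were lower (VIM and SNAI2). Leaving out each library in turn gave 1 to 2 members lower, with SNAI2 added without parent replicate 3. SNAI1 turned to -0.0031 without ADRr replicate 3, within a range of -0.0031 to 0.41 when each library was left out. ESRP1 was not tested with at least 10 counts in every library or a mean FPKM of at least 0.5, and its value was 0.30 in limma on log2(FPKM + 1) with no filter, where the pseudocount compresses low levels. VIM-AS1 lost its call there too (adjusted p = 0.086).

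Same-numbered libraries did not deviate together (correlations 0.0071, -0.020 and -0.045), and no parent library correlated best with the ADRr library of its own number. A replicate block gave 4406 genes higher and 4464 lower. ZEB1, ZEB2 and EPCAM were again higher and VIM lower, and no call of a member changed. Depth limits SNAI1, GRHL2, TWIST1, TWIST2 and the parent level of ESRP1.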
